A study of Canis lupus familiaris with 4 samples.

Results

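The enzymes PTGES, PTGS1, PTGS2, ALOX15B, HSD11B2, RDH10 and CYP1B1, which make or inactivate lipid mediators, retinoids and steroids, were followed across 4 canine glioblastoma lines beside the fatty acid carrier FABP5. PTGES, RDH10 and CYP1B1 were lowest in the line J3T-1 and, by their brightest probe sets, 9.93- to 15.1-fold higher in J3T-1shA, the derivative labelled as ANXA2-silenced. ALOX15B and FABP5 ran the other way between these lines. The 15.1-fold, of CYP1B1, rests on a J3T-1 signal of 222.4, under the 250 taken below as measured, and its dimmer probe set gave 8.49-fold. The dimmer PTGES probe sets gave larger ratios, from J3T-1 signals far under 250. The 8 genes were chosen on the signals and log2 ratios of these same 4 arrays, so their differences are a description and carry no test. They are 8 of the 15115 genes that the array annotation names with a single symbol, and 14 of the 42924 probe sets, groups of short probes for one transcript, belong to them. No probe set listed with several symbols held any of them.

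J3T-1 and J3T-2 both come from the canine glioblastoma cells J3T. Per the paper, J3T-1 has high and J3T-2 low annexin A2 (ANXA2), a membrane protein that binds calcium. Arrays called labelled ANXA2-high or ANXA2-low below follow the paper's description of the lines. ANXA2 was knocked down in J3T-1 to give J3T-1shA and overexpressed in J3T-2 to give J3T-2A. All were grown in the same serum-containing medium, and RNA of each line was hybridized to 1 GeneChip Canine Genome 2.0 array, so there are no replicates. Each altered line was set against its parental line. Whether it is a single clone is not given in the sources used here, and differences between cultures cannot be told apart from differences between lines.

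Prostaglandin synthesis starts when the cyclooxygenases PTGS1 and PTGS2 turn arachidonic acid, freed from membranes by phospholipase A2, into a short-lived precursor, which terminal synthases such as PTGES convert to prostaglandin E2. Lipoxygenases such as ALOX15B oxygenate the same fatty acid along another route. RDH10 oxidizes retinol to retinal, the first step towards retinoic acid, CYP1B1 oxidizes estrogens, retinoids and aromatic hydrocarbons, and HSD11B2 inactivates cortisol. FABP5 is not an enzyme but carries fatty acids and retinoic acid inside the cell. In gliomas the prostaglandin E2 pathway is best known for its part in inflammation and immune suppression.

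Values are MAS 5.0 signals, intensities on a linear scale that the authors scaled to one trimmed mean per array, 495.8 to 496.0 in the deposited values, with medians of 101.8 to 106.5. In a pair of arrays, a gene counted as measured if the higher signal was 250 or more and as different if the ratio exceeded 2. Each gene was read from its brightest probe set, by the mean over the arrays. As the only measure of error within an array pair, the log2 ratios of the 2 brightest measured probe sets of a gene differed with an SD of 0.29 to 0.41 over 3700 to 3806 genes in the 6 pairs. This spread, called the probe-set SD, does not cover variation between cultures. The targeted gene, ANXA2, does not check the labels. Its brightest probe set had 28656 on J3T-1, 30093 on J3T-1shA, 30103 on J3T-2 and 28775 on J3T-2A. A second bright ANXA2 probe set had 24127.5, 25725, 30311 and 35651 on these arrays. By these probe sets the log2 ratio was -0.07 and -0.09 in J3T-1 over J3T-1shA. In J3T-2A over J3T-2 it was -0.07 and 0.23. Of 14 markers of glial and other cells that the array names, 4 reached the limit on any array. The stem cell factor SOX2 had 936.8 to 1663 and the intermediate filament gene VIM 41177 to 43058 over the arrays. NES reached the limit on J3T-1shA only and the endothelial marker PECAM1 on J3T-2 only, whereas the astrocyte markers GFAP, S100B and AQP4 stayed under the limit throughout.

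PTGES, the inducible prostaglandin E synthase, was highest on J3T-1shA and lowest on J3T-1. Its brightest probe set read 275.5 on J3T-1, 2736 on J3T-1shA, 1337 on J3T-2 and 636.1 on J3T-2A. It was therefore lower on both arrays labelled ANXA2-high than on their ANXA2-low partners. The log2 ratio was -3.31 between J3T-1 and J3T-1shA, or 9.93-fold, and -1.07 between J3T-2A and J3T-2, or 2.10-fold. By this probe set, every step in the order J3T-1shA, J3T-2, J3T-2A, J3T-1 was wider than the probe-set SD, the narrowest at 2.54 SD. By the dimmest PTGES probe set the narrowest, between J3T-1shA and J3T-2, was 1.63 SD. In whole cultures, fewer cells with PTGES RNA and less of it per cell cannot be told apart, here and for the other genes. The other 2 PTGES probe sets gave the same order of the 4 arrays. Their signals on J3T-1 were only 11.4 and 14.8, far under the limit, against 1400 and 398.5 on J3T-1shA. Between J3T-2A and J3T-2 they had log2 ratios of -0.88 and -0.67, so that difference passed 2-fold by the brightest probe set only.

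Of the cyclooxygenases that feed PTGES, only PTGS2 was measured, and its signal was nearly level. PTGS2, the inducible form, had signals of 543.7 on J3T-1, 557.5 on J3T-1shA, 643.4 on J3T-2 and 476.6 on J3T-2A, a range of 1.35-fold. The 3 steps between neighbours in its order were all within the probe-set SD, and only J3T-2A over J3T-2, with a log2 ratio of -0.43, lay beyond it. PTGS1, the constitutive form, was under the limit on every array, with 62.2 on J3T-1, 77.6 on J3T-1shA, 131.8 on J3T-2 and 91.4 on J3T-2A. No ratio of PTGS1 is therefore read.

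**Figure D1:**
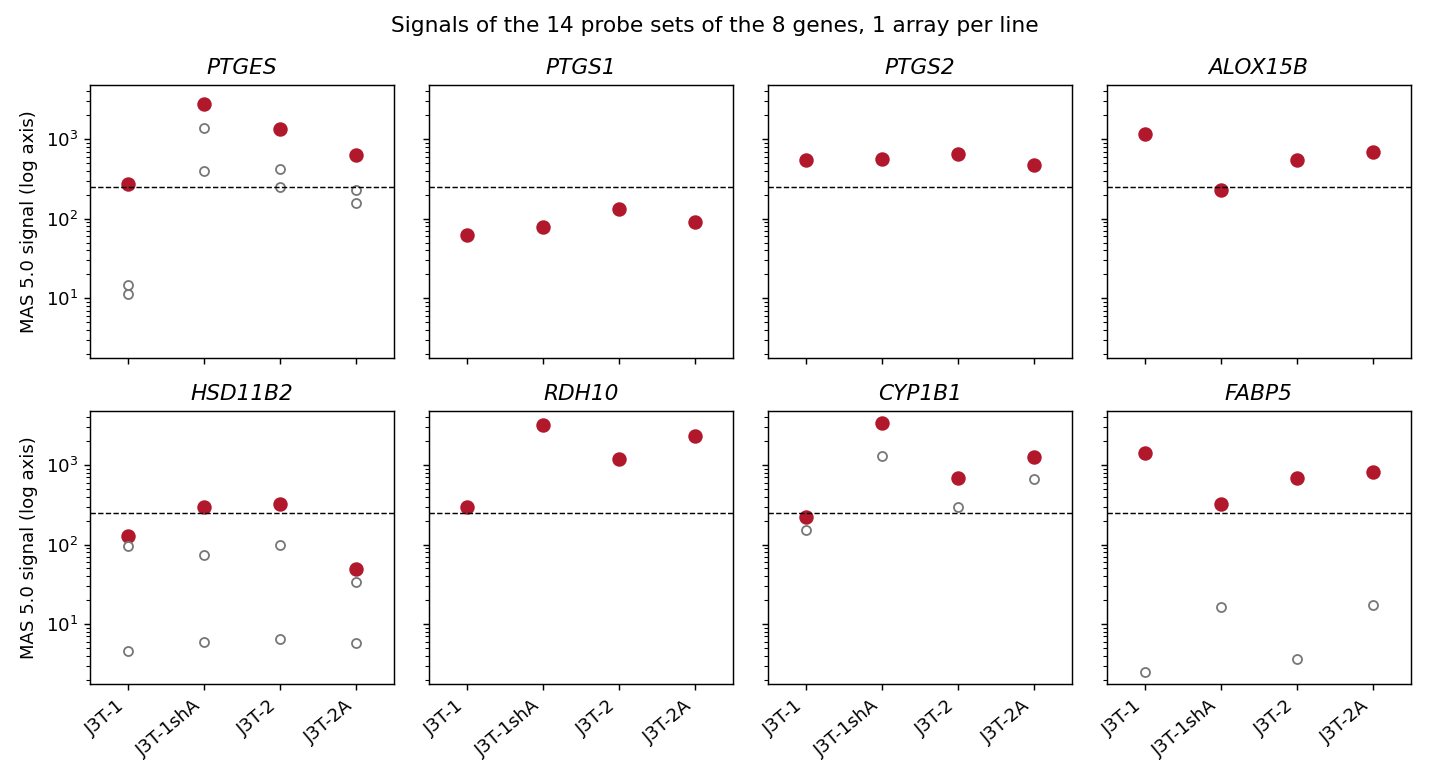
MAS 5.0 signal (log axis) of each of the 14 probe sets on the 4 arrays, with filled red points for the brightest probe set of a gene, open grey points for its others and a dashed line at the limit of 250. PTGES, RDH10 and CYP1B1 are highest on J3T-1shA and lowest on J3T-1, ALOX15B and FABP5 are the reverse, and PTGS2 stays between 476.6 and 643.4.

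Around these enzymes, the other terminal synthases and the fatty acid release step gave values of their own. PLA2G4A, the cytosolic phospholipase A2 that releases arachidonic acid, had 3812 on J3T-1, 1738 on J3T-1shA, 2484 on J3T-2 and 3286 on J3T-2A. It was 2.19-fold higher on J3T-1 than on J3T-1shA, the reverse direction of PTGES, with a log2 ratio of 1.13 and of 0.73 by a second bright probe set. PTGES2 and PTGES3, the other prostaglandin E synthases, were within 2-fold in all 6 pairs by their brightest probe sets, at 525.7 to 762.8 and at 4442 to 6059. A second PTGES2 probe set reached the limit on J3T-2 only, with 307.1 against 65.0 on J3T-1, 53.1 on J3T-1shA and 169.0 on J3T-2A, and had a log2 ratio of -2.24 in J3T-1 over J3T-2. PTGDS, a prostaglandin D synthase, reached the limit only on J3T-2, with 355.8 against 174.9 on J3T-2A, 140.9 on J3T-1shA and 10.6 on J3T-1. PTGIS, the prostacyclin synthase, reached it only on the J3T-1 lines, with 377.4 on J3T-1 and 252.1 on J3T-1shA against 50.6 on J3T-2 and 139.9 on J3T-2A. PTGR1, which reduces and inactivates prostaglandins, was bright and level at 15633 to 18205, and HPGD, the main prostaglandin dehydrogenase, was at 1.0 to 35.8. Of 9 prostanoid receptors, PTGER1 reached the limit on J3T-1shA (289.5) and PTGER2 on J3T-1 and J3T-2 (312.2 and 279.6), while the remaining 7 did so on no array.

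ALOX15B, a lipoxygenase of epithelia and macrophages, ran opposite to PTGES. Its single probe set had 1177 on J3T-1, 229.8 on J3T-1shA, 547.5 on J3T-2 and 682.4 on J3T-2A. J3T-1 exceeded J3T-1shA 5.12-fold, with the J3T-1shA array just under the limit, and exceeded J3T-2 2.15-fold. J3T-2A over J3T-2 gave a log2 ratio of 0.32, close to the probe-set SD of 0.29 for that pair. ALOX15, another arachidonate lipoxygenase, had 198.3 on J3T-1, 9.4 on J3T-1shA, 237.1 on J3T-2 and 163.5 on J3T-2A, all under the limit. ALOX5, ALOX12, ALOX12B and ALOXE3 stayed at or under 62.5. LTA4H, which makes leukotriene B4, was the only other measured gene of the 12 lipoxygenase and leukotriene genes on the array, at 2672 to 4019 and within 2-fold.

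RDH10, the retinol dehydrogenase, was lowest on J3T-1 and high on both altered lines. Its only probe set had 293.6 on J3T-1, 3206 on J3T-1shA, 1195 on J3T-2 and 2332 on J3T-2A, with all arrays over the limit. J3T-1 was 10.9-fold lower than J3T-1shA (log2 ratio -3.45). J3T-2A was 1.95-fold higher than J3T-2 (log2 ratio 0.96), which is 3.27 probe-set SD but under the 2-fold line. Centring the arrays on their medians carried this ratio past 2-fold. The 2 brightest arrays, J3T-1shA and J3T-2A, differed by 0.46 in log2, or 1.38 SD.

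CYP1B1 put the arrays in the same order as RDH10. Its brighter probe set had 222.4 on J3T-1, 3361 on J3T-1shA, 686.7 on J3T-2 and 1270 on J3T-2A, and the dimmer one had 151.1, 1282, 293.2 and 672.5 on these arrays. Both put the arrays in the same order, and both were under the limit on J3T-1 only. J3T-1 was 15.1-fold lower than J3T-1shA by the brighter probe set and 8.49-fold by the dimmer. J3T-2A was 1.85-fold and 2.29-fold higher than J3T-2, so the 2 probe sets lay on either side of the 2-fold line. Of 7 genes around the aryl hydrocarbon receptor that the array names, 4 reached the limit. AHR, the receptor through which aromatic hydrocarbons induce CYP1B1, did not, at 62.2 to 178.0. TIPARP, another AHR target, had 376.6 on J3T-1, 180.4 on J3T-1shA, 726.4 on J3T-2 and 469.9 on J3T-2A, so J3T-1 exceeded J3T-1shA 2.09-fold where CYP1B1 was lower. NQO1, a quinone reductase, ran the same way as TIPARP with a log2 ratio of 0.67, and 1.20 by a second bright probe set.

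**Figure D2:**
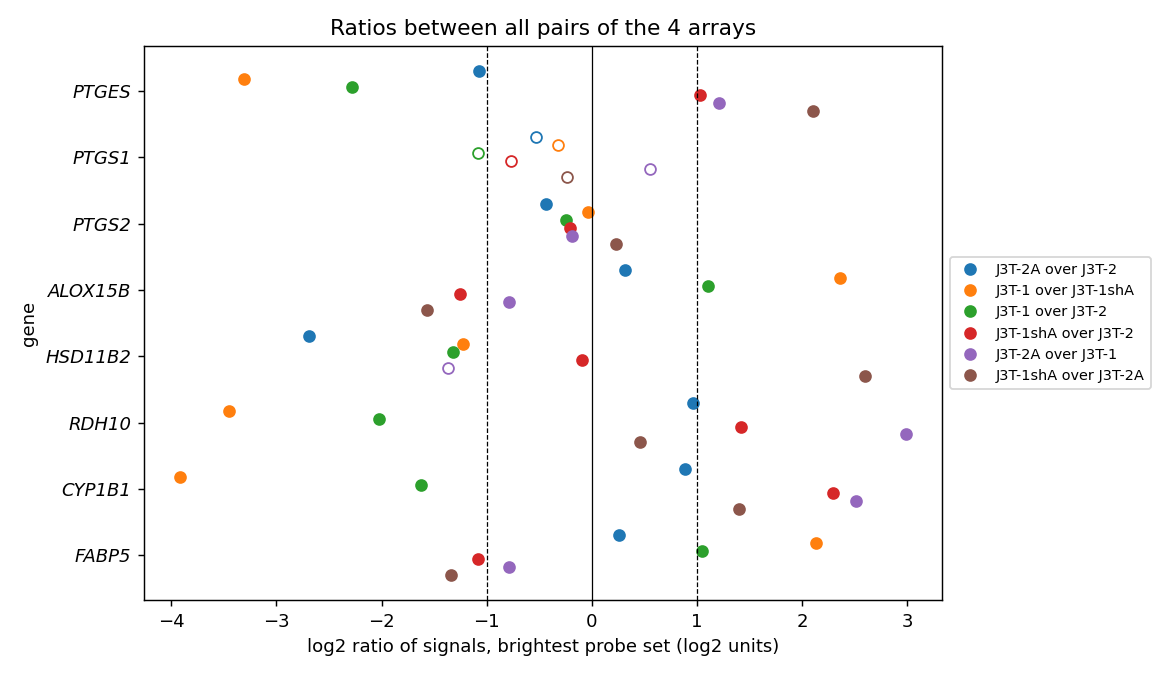
Log2 ratio of the brightest probe set of each gene (x axis, log2 units) in the 6 pairs of arrays, coloured by pair, with open points where neither array reached 250 and dashed lines at 2-fold. In J3T-1 over J3T-1shA, PTGES, RDH10 and CYP1B1 lie at -3.31, -3.45 and -3.92, and ALOX15B and FABP5 at 2.36 and 2.13.

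Further genes of the retinoid pathway were also brightest on J3T-1shA. CRABP1, a retinoic acid binding protein, had 579.4 on J3T-1shA against 87.8 on J3T-1, 131.1 on J3T-2 and 181.2 on J3T-2A. RARB, a retinoic acid receptor that is itself induced by retinoic acid, had 1488 on J3T-1shA against 327.9 on J3T-1, 219.8 on J3T-2 and 209.5 on J3T-2A. The log2 ratio of J3T-1 over J3T-1shA was -2.18, and a second probe set gave -2.17. DHRS3, which turns retinal back to retinol and so reverses the RDH10 reaction, reached the limit only on J3T-1shA, with 447.7 against 143.0 to 181.0 on the other arrays. These 3 genes were high on J3T-1shA alone, unlike RDH10, which was also high on J3T-2A.

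RBP4, the secreted retinol carrier, was low on J3T-1 alone. It had 6785 on J3T-1, 19887 on J3T-1shA, 16458 on J3T-2 and 22044 on J3T-2A, so J3T-1 was 2.93-fold lower than J3T-1shA and 2.43-fold lower than J3T-2. STRA6, the RBP4 receptor, was level at 642.0 to 814.2, and RDH11 and RDH14, other retinol dehydrogenases, were within 2-fold in all 6 pairs. Among the retinal dehydrogenases, which complete retinoic acid synthesis, values were taken only for ALDH1A1 and ALDH1A2. These stayed under the limit at 5.0 to 77.7, as did the retinoic acid hydroxylases CYP26A1, CYP26B1 and CYP26C1. In J3T-1 over J3T-1shA, RBP4, RDH10 and DHRS3 were lower and none was higher among 7 measured genes of retinoid synthesis and storage, and CRABP1 and RARB were lower among 3 measured carriers and receptors. Of all measured genes in that pair, 3.8% were over 2-fold higher and 4.26% lower. No measured retinoid gene was over 2-fold different in J3T-2A over J3T-2, beside 1.69% higher and 2.1% lower of all, and the median of the 6 measured synthesis and storage genes without RDH10 was -0.02, against 0.00 for all measured genes.

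**Figure D3:**
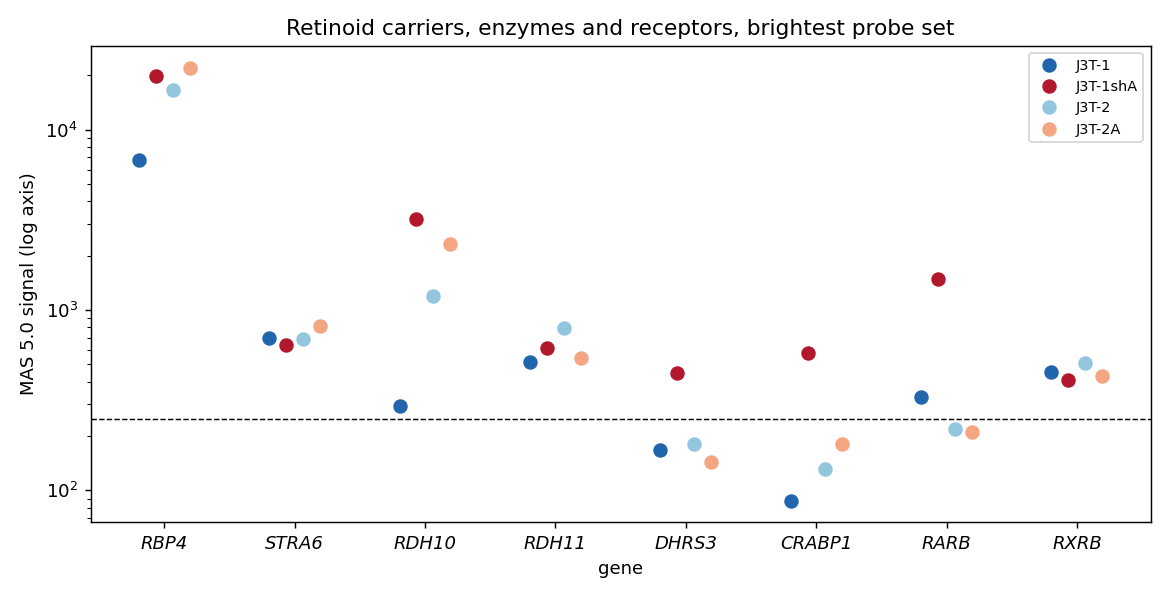
MAS 5.0 signal (log axis) of 8 retinoid carriers, enzymes and receptors on the 4 arrays, by brightest probe set, with a dashed line at 250. DHRS3, CRABP1 and RARB stand out on J3T-1shA, RBP4 and RDH10 are lowest on J3T-1, and STRA6, RDH11 and RXRB are level.

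HSD11B2, the enzyme that inactivates cortisol, was dim. Its brightest probe set had 128.3 on J3T-1, 300.4 on J3T-1shA, 320.5 on J3T-2 and 49.6 on J3T-2A, so only J3T-1shA and J3T-2 reached the limit, and these 2 differed by less than the probe-set SD. The log2 ratio was -2.69 for J3T-2A over J3T-2 and -1.23 for J3T-1 over J3T-1shA, and both rest on lower signals under the limit, so the sizes of these differences are not read. The first changed to -1.63 with a pseudocount of 80, and with a floor of 160 the 320.5 on J3T-2 stood against 160 on J3T-2A. The other probe sets, at 33.3 to 97.5 and at 4.6 to 6.4, were under the limit throughout. The brighter of them was again lowest on J3T-2A, but ran the other way in J3T-1 over J3T-1shA (log2 ratio 0.41), so the second difference rests on a single probe set near the limit.

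Beside HSD11B2, the glucocorticoid receptor gene NR3C1 had 780.1 on J3T-1, 375.4 on J3T-1shA, 654.9 on J3T-2 and 576.8 on J3T-2A. J3T-1 exceeded J3T-1shA 2.08-fold, with log2 ratios of 1.06, 0.62 and 0.87 by its 3 probe sets. HSD11B1, which reactivates cortisone and so opposes HSD11B2, was under the limit at 28.7 to 38.1. Of 7 glucocorticoid response genes, 5 were measured and all 5 were within 2-fold in both pairs of altered and parental lines. Of all measured genes, 1.69% were over 2-fold higher and 2.1% lower in J3T-2A over J3T-2. In J3T-1 over J3T-1shA these shares were 3.8% and 4.26%, so nothing is read from the 5. TSC22D3, one of the 5, had 1594 on J3T-1, 979.6 on J3T-1shA, 2782 on J3T-2 and 1779 on J3T-2A. It was lowest on J3T-1shA. PER1 had 522.7 on J3T-1shA and 533.2 on J3T-2A, within the probe-set SD, and more on the other arrays. FKBP5 and SGK1 were lowest on J3T-1. DUSP1 had 1082 on J3T-1 and 1091 on J3T-1shA, and its dimmer probe sets put J3T-1shA lowest. The log2 ratio of J3T-1 over J3T-1shA was -0.18 for FKBP5, -0.01 for DUSP1 and -0.49 for SGK1. Of the other 15 steroid-converting enzymes and receptors on the array, 7 were measured in J3T-2A over J3T-2. None of them was over 2-fold different, beside 1.69% higher and 2.1% lower of all.

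The carrier FABP5 ordered the arrays as ALOX15B did. Its bright probe set had 1406 on J3T-1, 320.3 on J3T-1shA, 680.2 on J3T-2 and 812.4 on J3T-2A, all over the limit. J3T-1 exceeded J3T-1shA 4.39-fold and J3T-2 2.07-fold. Between J3T-2A and J3T-2 its log2 ratio of 0.26 was within the probe-set SD. The second FABP5 probe set, at 2.5 to 17.2, was far under the limit and ranked J3T-1 lowest, where the bright one had it highest, at a level where no difference is read. The probe sets read for FABP5, ALOX15B, PTGS1 and PTGS2 carry the suffix that Affymetrix gives to probes shared by several transcripts, so near-identical copies cannot be told apart there. Of the 6 other fatty acid binding proteins on the array none reached the limit, the brightest being FABP7, the brain-type form, at 78.6 to 138.9. PPARD, a nuclear receptor to which FABP5 delivers fatty acids, was also under it, at 103.3 to 160.6. Its lipid-responsive target PLIN2, a lipid droplet coat protein, was bright and level at 3151 to 3684.

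**Figure D4:**
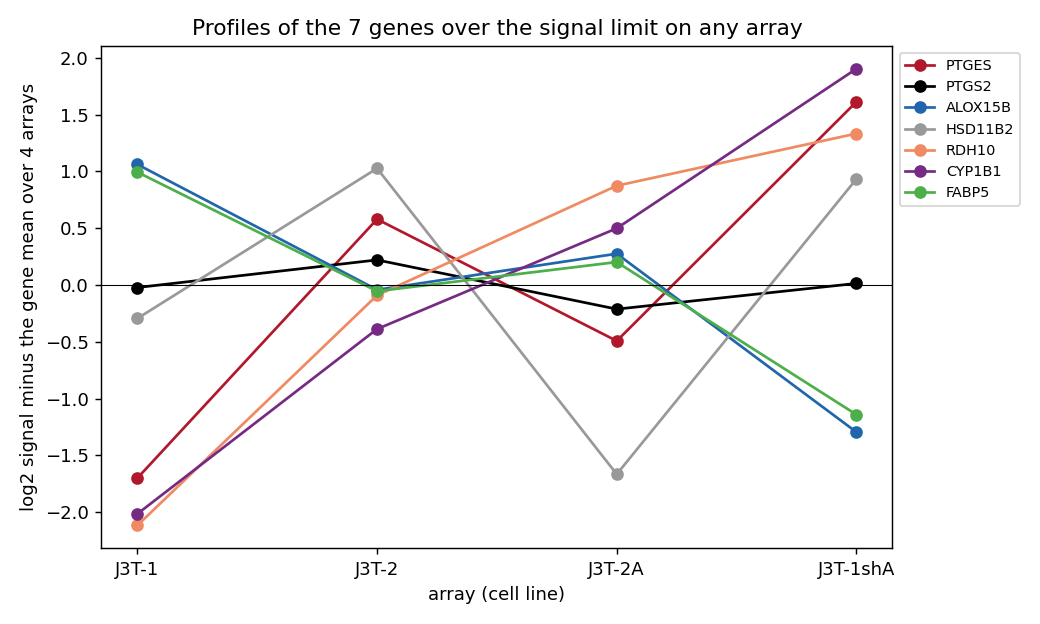
Log2 signal minus the mean of the gene over the 4 arrays (y axis) for the 7 genes that reached 250 on any array, with lines joining the arrays (x axis) only to guide the eye. FABP5 and ALOX15B overlie each other, high on J3T-1 and low on J3T-1shA where CYP1B1, RDH10 and PTGES are the reverse, and between J3T-2 and J3T-2A PTGES dips while FABP5, ALOX15B, RDH10 and CYP1B1 climb.

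Likeness between genes was described by the root mean square difference of log2 signals, centred on each gene's mean over the 4 arrays, among 7241 genes that reached the limit on any array. With 4 points such likeness is only a description. FABP5 was the gene most like ALOX15B, at 0.09, followed by NUPR1 and RIIAD1 at 0.12. Those most like FABP5 were RIIAD1 (0.06), the stress protein gene NUPR1 (0.07) and ALOX15B (0.09). RDH10 and CYP1B1 differed by 0.38, and the gene most like both was PRSS23, a serine protease, at 0.27 and 0.17. PRSS23 had 445.7 on J3T-1, 6352 on J3T-1shA, 1787 on J3T-2 and 2727 on J3T-2A. CYP1B1 was next most like CCDC80 and GPC4, and RDH10 most like IL13RA2 and CXCL16. PTGES was most like TIMP3, a metalloproteinase inhibitor, at 0.08, which had 194.1 on J3T-1, 1827 on J3T-1shA, 816.8 on J3T-2 and 400.5 on J3T-2A. SERPINI1 and NTRK2, both known from neurons, came next at 0.31. HSD11B2 was most like SPSB1, FIZ1 and APOD, at 0.19 to 0.32. Its distances rest on signals under the limit, 128.3 on J3T-1 and 49.6 on J3T-2A, so nothing is read from them. PTGS2, whose range was under the median of all genes, was most like MEPCE, EIF2B2 and PPM1M, all at 0.02.

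Set against FABP5, ALOX15B was alike and the other enzymes were not. In the centred profiles ALOX15B lay 0.09 from FABP5 and PTGS2 0.81. PTGES lay 1.98, RDH10 2.01 and CYP1B1 2.15 from it. HSD11B2 lay 1.63 from it, by signals under the limit on J3T-1 and J3T-2A. In J3T-1 over J3T-1shA, FABP5 and ALOX15B ranked 44th and 32nd highest of 6944 measured genes, and CYP1B1, RDH10 and PTGES ranked 19th, 27th and 31st lowest. For J3T-2A over J3T-2 the ranks of RDH10 and CYP1B1 were 128 and 149 from the top of 6860 measured genes, that of PTGES was 119 from the bottom, and FABP5 and ALOX15B had 81.7% and 86.0% of genes below them.

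In J3T-1 over J3T-1shA, ALOX15B and FABP5 were over 2-fold higher and PTGES, HSD11B2, RDH10 and CYP1B1 lower of 7 measured, beside 3.8% higher and 4.26% lower among all measured genes. The pair J3T-1 over J3T-2 had ALOX15B and FABP5 higher and the other 4 lower, beside 2.94% and 4.05%, and shares the J3T-1 array with the first pair. In J3T-1shA over J3T-2, PTGES, RDH10 and CYP1B1 were higher and ALOX15B and FABP5 lower (4.39% and 5.31% of all). In J3T-1shA over J3T-2A, PTGES, HSD11B2 and CYP1B1 were higher and the same 2 lower (2.66% and 3.11%). In J3T-2A over J3T-1, where 6 were measured, PTGES, RDH10 and CYP1B1 were higher and none lower (2.72% and 1.94%). J3T-2A over J3T-2 had the fewest, with none higher and PTGES and HSD11B2 lower of 7 (1.69% and 2.1%). All 6 pairs share arrays with others, and since the genes were chosen for such differences, nothing is read from these counts.

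The direction with labelled ANXA2 state was shared by both line pairs for some of the genes only. PTGES and HSD11B2 were lower on the array labelled ANXA2-high of both pairs, HSD11B2 by its brightest probe set. RDH10 and CYP1B1 had log2 ratios of 0.96 and 0.89 in J3T-2A over J3T-2 and of -3.45 and -3.92 in J3T-1 over J3T-1shA. Their direction turned between the pairs. ALOX15B and FABP5 were over 2-fold higher in the second pair and under 2-fold in the first. Whether the effects differ between the pairs was not tested, because each rests on 1 array a line.

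Over the wider lists of 117 prostanoid, lipoxygenase, retinoid, steroid, aryl hydrocarbon receptor and fatty acid carrier genes, which include the 8, the array named 107. In J3T-1 over J3T-1shA, 41 were measured, of which 6 were over 2-fold higher and 8 lower, beside 3.8% and 4.26% of all measured genes. Without the 8 genes these were 34 measured, with PLA2G4A, PTGER2, NR3C1 and TIPARP higher and RBP4, DHRS3, CRABP1 and RARB lower, and a median log2 ratio of -0.04 against 0.03 for all measured genes. Between J3T-2A and J3T-2, 32 genes other than the 8 were measured and only PTGDS was over 2-fold different, and lower, beside 1.69% higher and 2.1% lower of all, with a median of -0.18 against 0.00.

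**Figure D5:**
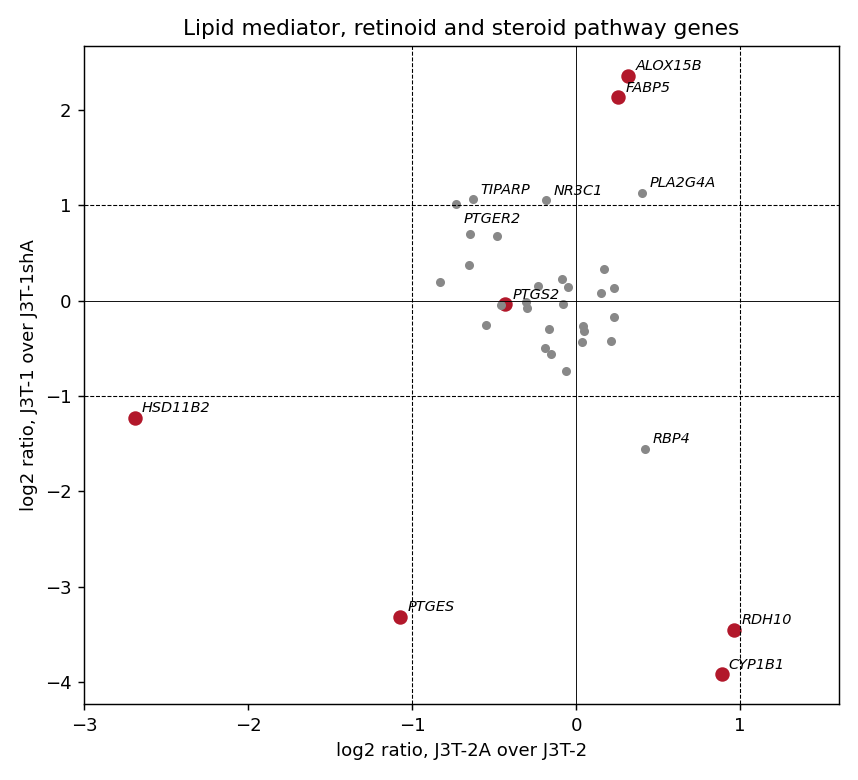
Log2 ratio in J3T-2A over J3T-2 (x axis) against that in J3T-1 over J3T-1shA (y axis) for the 36 pathway genes measured in both pairs, with the 7 measured genes of the set in red, the 29 others in grey and dashed lines at 2-fold. ALOX15B and FABP5 are at the top, RDH10 and CYP1B1 at the lower right, PTGES and HSD11B2 at the lower left, and PTGS2 lies among the others. DHRS3, CRABP1, RARB and PTGDS are not plotted, since they were measured in 1 of the pairs only.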

How the data were processed

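Total RNA of each line was measured on 1 Affymetrix canine array, with no replicates. Per the methods, the authors computed the deposited signal intensities, on a linear scale, with MAS 5.0 at default settings and global scaling. Their stated trimmed mean was 100, whereas the deposited columns had 495.8 to 496.0 without the lowest and highest 2%, so limits for the stated scale were multiplied by 5. MAS 5.0 signals of dim probe sets are noisy, and ratios from them can be large.

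Genes were named from the platform annotation (29254 probe sets with 1 symbol, 439 with several, 13231 not listed), and all 14 probe sets of the 8 genes kept their symbol by Entrez identifier. Ratios were taken between arrays with no further normalization (Python 3.11.15, pandas 2.3.3). The ratio and count steps were run on simulated bright signals without noise, where planted ratios came back. This checks the arithmetic only, not the error of single arrays. Named genes were the 8, list genes over 2-fold in J3T-2A over J3T-2 or J3T-1 over J3T-1shA, their reaction partners and receptors, and the 3 genes most alike in pattern to each. Other list genes and the cell markers were named after their values were seen. The genes and lists were chosen with earlier results of these data known. No positions are given, as no genome build is named for the array table. Alternatives were quantile normalization, median centring, a pseudocount, a floor, the median of the probe sets, and other limits.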

Additional observations from a re-analysis of the deposited data

Results flagged for a closer look

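RDH10 and CYP1B1 moved in opposite directions in the line pairs labelled as differing in ANXA2 state, in both pairs by more than the probe-set SD. The log2 ratio of RDH10 was 0.96 in J3T-2A over J3T-2 and -3.45 in J3T-1 over J3T-1shA. That of CYP1B1 was 0.89 and -3.92, and its second probe set gave 1.20 and -3.08. With 1 array per line the difference between the pairs was not tested. No group holds enough arrays to look for a sample that stands apart.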

How the results depend on the processing

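Of 240 log2 ratios of the 8 genes under 5 alternatives, 211 moved by less than the probe-set SD and 26 by more. The remaining 3, measured and over 2-fold before, turned sign. Sign changes of ratios under 2-fold were not counted apart. FABP5 in J3T-2A over J3T-1 is such a case among the 26, with -0.79 by its bright and 2.78 by its dim probe set. All 48 under quantile normalization and all 48 under median centring were among the 211. The median of the probe sets turned 3: HSD11B2 (0.41) and FABP5 (-0.29) in J3T-1 over J3T-1shA, and FABP5 (0.55) in J3T-1shA over J3T-2, since dim probe sets then count as much as bright ones.

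Of the counts of the 8 genes over 2-fold, those given here changed by over 1.5 times or from 0, and the others stayed or changed by 1. The 4 lower genes in J3T-1 over J3T-1shA, for example, became 3 with a pseudocount, a floor, the median of the probe sets and a limit of 500. In J3T-2A over J3T-2, higher genes went from 0 to 1 with median centring and with the median of the probe sets, and lower genes from 2 to 1 with a pseudocount, 1 with a limit of 500 and 0 with the median of the probe sets. The 2 higher genes in J3T-1 over J3T-1shA became 1 with the median of the probe sets, as did the 2 lower ones in J3T-1shA over J3T-2A. The 2 higher genes in J3T-1 over J3T-2 and the 2 lower ones in J3T-1shA over J3T-2 became 1 with that median and 1 with a pseudocount. In J3T-2A over J3T-1, lower genes went from 0 to 1 with no limit. Among the wider lists, higher genes in J3T-2A over J3T-2 went from 0 to 1 with median centring, 1 with the median of the probe sets and 8 with no limit, and lower ones from 3 to 1 with a pseudocount, 1 with a limit of 500 and 7 with no limit. In J3T-1 over J3T-1shA, higher genes went from 6 to 3 with a pseudocount, 3 with the median of the probe sets and 20 with no limit, and lower ones from 8 to 22 with no limit. The cause of each was not tested. No paired analysis was possible because each line has 1 array and the labels give no replicate numbers. The number of arrays limits every value.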

Other observations

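Genes that lie next to the 8 were looked at after their values were seen, as values with no test. Gene order was taken from the RefSeq assembly UU_Cfam_GSD_1.0, for neighbours only. Of the nearest 10 measured genes on each side of PTGES, 15 of 20 had a log2 ratio under 0 in J3T-1 over J3T-1shA, with a median of -0.47 against 0.03 for all measured genes, of which 47.1% were under 0. The nearest on each side were TOR1B at -0.54 and the homeobox gene PRRX2 at -1.98. In J3T-1 over J3T-2, 16 of 20 were under 0 (median -0.40), beside 47.5% of all measured genes. In J3T-2A over J3T-2, 8 of 20 were (median 0.07), beside 50.6% of all. Around PTGS1, 12 of 14 were under 0 in J3T-1 over J3T-1shA (median -0.23) and 13 of 14 in J3T-1 over J3T-2 (median -0.29). The shares of all measured genes were 47.1% and 47.5%.

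Around RDH10 and CYP1B1, 7 of 20 and 3 of 20 genes were under 0 in J3T-1 over J3T-2, beside 47.5% of all. The medians were 0.12 and 0.23, whereas both genes themselves were lower in that pair. In J3T-1 over J3T-1shA, 8 of 20 and 9 of 20 were under 0, beside 47.1%. SBSPON, a matrix protein gene 3 places before RDH10, had a log2 ratio of -3.75, while RPL7 and STAU2 on either side of RDH10 had 0.09 and 0.45. ALOX15B lies beside ALOX12B and ALOXE3, which were under the limit on all arrays, and PTGS2 beside PLA2G4A.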
